A study of Mus musculus with 12 samples.

Results

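Transcripts of the type I and type III interferon system were followed in mouse tumors: the ligands Ifna1, Ifna2, Ifnb1 and Il28a, and the receptor chains Ifnar1 and Ifnar2. These 6 members were taken by symbol from the 561 genes on the NanoString nCounter Mouse Immunology Panel, an assay that counts barcoded probes hybridized to RNA, with no amplification. In 4 groups, Sirpα-/- mice with irradiation (IR), WT mice with IR, Sirpα-/- mice without IR and WT mice without IR, all C57BL6 animals of 6 to 8 weeks by the labels, carried MC38 colorectal, Pan02 pancreatic or KPC pancreatic tumors. Tumors of 250 to 300 mm3 received a single X-ray dose of 8 Gy or none and were resected 12 h and 18 h later, 2 mice per time. Their bulk RNA was pooled, so each of the 12 samples is 1 measurement of 4 mice and no sample repeats a tumor model within a group. Loss of Sirpα was germline, so every host cell lacked it, whereas the same tumor lines were engrafted in both hosts.

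Interferons are secreted when cells sense foreign or misplaced nucleic acid. Sensors such as cGAS, RIG-I and the endosomal Toll-like receptors signal through the kinases TBK1 and IKKε to the transcription factors IRF3, IRF7 and NF-κB, which switch on the interferon genes. IFN-β is typically made early by many cell types, and the IFN-α family is amplified later through IRF7. All type I interferons bind the same receptor, made of IFNAR1 and IFNAR2, and signal through the kinases JAK1 and TYK2 to induce antiviral genes. Type III interferons such as Il28a (IFN-λ2, now named Ifnl2) signal through another receptor that is found mainly on epithelial cells and neutrophils. In irradiated tumors, type I interferon is known for its role in dendritic cell priming of T cells.

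The regulatory sequence upstream of the type I genes is shown because it is where the IRF and NF-κB factors named above are known to act. RefSeq promoters (build GRCm38.p6) were found for all 6 members, 5 under the symbol used here and Il28a under its current symbol, Ifnl2. The 80 bases from position -185 to -106 before the annotated start follow, 5′ to 3′ on the strand of the gene, on chr4:88849902-88849981 (plus strand) for Ifna1, chr4:88683885-88683964 (minus strand) for Ifna2 and chr4:88522900-88522979 (minus strand) for Ifnb1. Capitals mark the short IRF core AANNGAAA and, in Ifnb1 alone of these, an NF-κB match made of GGGA, 2 free bases and TTCC.
Ifna1: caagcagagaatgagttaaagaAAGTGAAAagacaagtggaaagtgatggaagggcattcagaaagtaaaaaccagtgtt
Ifna2: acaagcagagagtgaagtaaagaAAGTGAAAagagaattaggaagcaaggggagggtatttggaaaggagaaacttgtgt
Ifnb1: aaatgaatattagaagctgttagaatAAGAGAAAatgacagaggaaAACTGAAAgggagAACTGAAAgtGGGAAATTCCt

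The Ifna1 and Ifna2 windows were identical at 61 of 79 aligned bases (77.2%), with the same IRF core in both. Both strands of the 250 bases upstream of each start were searched. A double IRF motif, GAAA, 2 free bases and GAAA, which contains the core, was found at -165 in Ifna1 and at -164 and -239 in Ifna2, and in 2.98% of all 32851 promoters. The core alone stood at -163 in Ifna1, at -162 and -237 in Ifna2 and at -159, -139 and -126 in Ifnb1, and in 21.3% of all promoters. The NF-κB motif stood at -116 in Ifnb1 and in 1.21% of all promoters. None of the 3 motifs was present in these windows of Il28a, Ifnar1 or Ifnar2. Ifnar1 and Ifnar2 are both on chromosome 16 and Il28a is on chromosome 7.

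All values below are normalized counts as deposited. Features of the scale and the depth touch every result. In each tumor model the 14 panel reference genes summed to the same total in all 4 samples (58124 in MC38, 43973 in Pan02 and 25879 in KPC, with a spread of at most 0.03). Each tumor model thus has a scale of its own, and raw levels of different models are not on a common scale. The net counts recovered from the values were 12292 and 21576 in the non-irradiated KPC samples of Sirpα-/- and WT mice, and 79210 to 403440 in the other 10 samples. Many genes sit at the lowest value a sample can show, which ranged from 1 to 6.48 normalized counts. In the 3 irradiated Sirpα-/- samples 13 to 17 genes were at this value, against 56 to 267 genes in the other 9 samples.

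Ifna1, an IFN-α subtype, was the most changed member. It had 195 (MC38), 907 (Pan02) and 303 (KPC) normalized counts in irradiated Sirpα-/- tumors, against 9.78, 3.25 and 9.07 in irradiated WT tumors. Without IR it had 56.5 in MC38 and the lowest value of the sample in Pan02 (2.48) and KPC (6.48) of Sirpα-/- mice. In WT tumors without IR it had 1.77 in Pan02 and the lowest value in MC38 (1) and KPC (3.79). Among the 9 samples outside the irradiated Sirpα-/- group only the non-irradiated MC38 tumor of Sirpα-/- mice was above 10.

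Ifna2, a second IFN-α subtype, was measured at lower counts. It had 22.3, 95.5 and 33.8 normalized counts in MC38, Pan02 and KPC tumors of irradiated Sirpα-/- mice, against 1.5, 1 and 1.51 in irradiated WT mice. In non-irradiated tumors it was at the lowest value in all 3 Sirpα-/- samples (1.08, 2.48 and 6.48) and had 1, 4.72 and 3.79 in the WT samples. No sample outside the irradiated Sirpα-/- group reached 7. The 5 genes that ran most like Ifna2, named below, did not reach 7 there either.

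Ifnb1, which encodes IFN-β, had 24.0, 187 and 51.7 normalized counts in MC38, Pan02 and KPC of irradiated Sirpα-/- mice, against 1.5, 4.07 and 3.53 in irradiated WT mice. It had 3.77, 2.48 and 6.48 in non-irradiated Sirpα-/- tumors, against 1, 1.77 and 3.79 in non-irradiated WT tumors, with Pan02 and KPC of the Sirpα-/- mice at their lowest value. In each tumor model the irradiated Sirpα-/- sample was the highest.

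Il28a, the type III ligand, had 46.3, 117 and 45.5 normalized counts in irradiated Sirpα-/- tumors, against 1.5, 1 and 6.05 in irradiated WT tumors. Its non-irradiated values were 1.08, 2.48 and 6.48 in Sirpα-/- mice, against 1, 1.18 and 3.79 in WT mice. The probe was therefore clearly above the lowest value in irradiated Sirpα-/- tumors, whereas of the other 9 samples it was above that value only in irradiated WT KPC and, at 2 counts, in non-irradiated WT Pan02.

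The receptor chains behaved differently. Ifnar1, the signal-transducing chain, had 296, 238 and 122 normalized counts in MC38, Pan02 and KPC of irradiated Sirpα-/- mice, against 457, 387 and 212 in irradiated WT mice. It had 331, 381 and 156 in non-irradiated Sirpα-/- tumors, against 335, 460 and 299.6 in non-irradiated WT tumors. Within each tumor model the irradiated Sirpα-/- sample was the lowest of the 4. Across models the groups overlapped on the deposited values, whose scale differs between models.

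Ifnar2, the high-affinity ligand-binding chain, had 239, 190 and 81.8 normalized counts in irradiated Sirpα-/- tumors, against 261.0, 210 and 141 in irradiated WT tumors. It had 192, 135 and 58.4 in non-irradiated Sirpα-/- tumors, against 209, 179 and 34.1 in non-irradiated WT tumors. Its highest value in every tumor model was in irradiated WT mice. Both receptor chains were well above the lowest value in all 12 samples. On the deposited values their groups overlapped across models in every comparison. Those values have no common scale between models, so this overlap does not compare like levels.

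**Figure D1:**
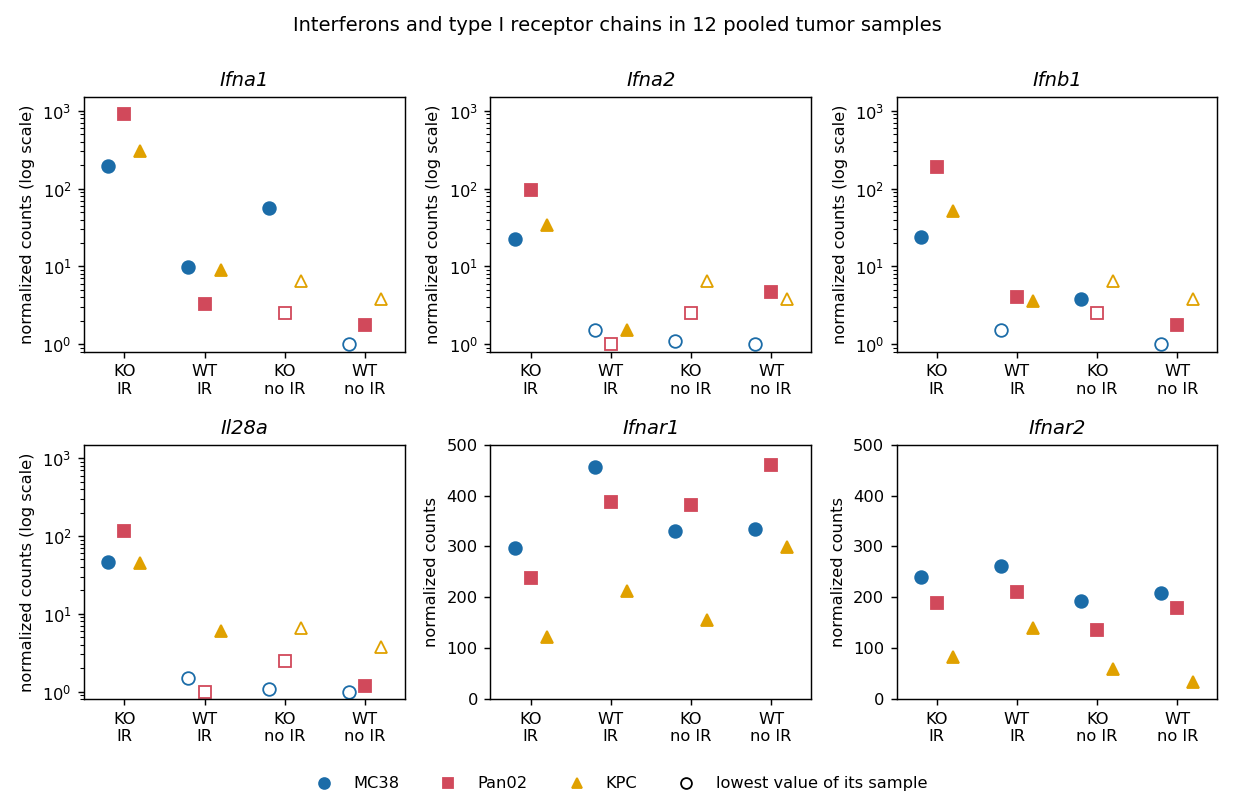
Normalized counts of the 6 members (vertical axis, logarithmic for the ligands and linear for the receptor chains) in each of the 12 samples, by group along the horizontal axis and by tumor model as symbol and color; open symbols are at the lowest value of their sample. The 4 ligands are high in the 3 irradiated Sirpα-/- (KO) samples, Ifna1 between 195 and 907, and Ifnar1 and Ifnar2 are present in every sample.

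Within a tumor model each ratio compares 1 sample with 1 sample, so it carries a counting interval (95%, counting error only) and no test. In irradiated tumors Ifna1 was 19.9-fold higher in Sirpα-/- than in WT mice in MC38 (8.83 to 46.6), 279-fold in Pan02 (108 to 1027) and 33.4-fold in KPC (20.9 to 56.9). Where WT tumors were at the lowest value, the ratio was taken against 3 counts. Ifna2 was thus at least 4.93-fold higher in MC38 and at least 39.1-fold in Pan02, and it was 22.4-fold higher in KPC (7.27 to 112, on 3 WT counts). Ifnb1 was at least 5.32-fold higher in MC38, 46.0-fold in Pan02 (18.8 to 145) and 14.6-fold in KPC (6.81 to 37.6). Il28a was at least 10.3-fold higher in MC38, at least 48.0-fold in Pan02 and 7.53-fold in KPC (4.06 to 15.2). For each ligand Pan02 gave the largest ratio or bound, and the bounds have no upper limit.

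Genotypes were compared over the 3 models with limma, on log2(normalized count + 10), for 461 genes that reached 50 in some sample. Tumor model entered as a blocking factor. The models stand as replicates here, so p-values measure the spread between models and not between mice, and fold changes of low genes are understated by the added 10. In irradiated tumors Ifna1 rose in Sirpα-/- relative to WT mice by a log2 fold change of 4.51 ± 0.65 (SE; limma adjusted p = 0.00379). Ifna2 rose by 2.23 ± 0.38 (limma adjusted p = 0.00480), Ifnb1 by 2.52 ± 0.47 (0.00712) and Il28a by 2.54 ± 0.37 (0.00379), each higher in 3 of 3 models.

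Thus 4 of the 6 members were called higher, against 15.8% of all 461 genes tested (73 genes), and 0 members were called lower, against 0.651% of all genes (3 genes). Ifna2, Ifnb1 and Il28a passed the filter on low values only through the irradiated Sirpα-/- samples, so their p-values and their number among the calls are a description. The calls did not hold without either pancreatic model. Without Pan02, Ifna1 (3.71, limma adjusted p = 0.279) and Ifnb1 (1.88, 0.286) were not called and Ifna2 and Il28a were not tested. Without KPC, the 4 adjusted p-values lay between 0.0857 and 0.0891, with a log2 fold change of 4.74 for Ifna1. In both cases 0 genes of the panel were called.

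**Figure D2:**
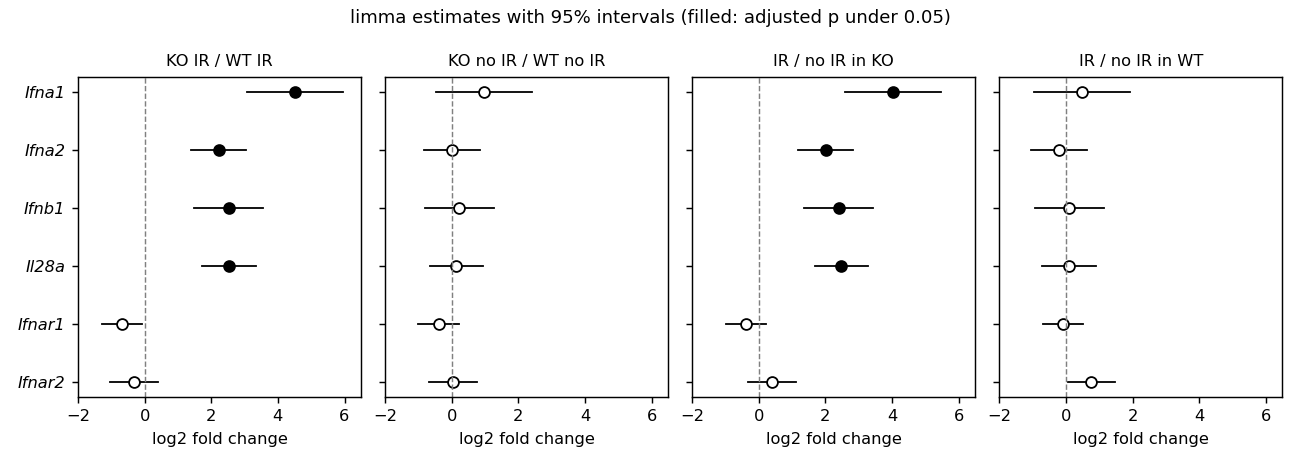
Log2 fold changes (horizontal axis, on log2(normalized count + 10)) with their 95% intervals from limma for the 6 members in 4 comparisons; filled points have an adjusted p under 0.05. The ligands are filled in irradiated KO against irradiated WT and in irradiated against non-irradiated KO, with Ifna1 at 4.51 and 4.02, and no receptor chain is filled.

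Many weakly measured genes moved with the ligands in these samples, and the ligands were read against them. Of the genes other than members that were under 10 normalized counts in irradiated WT tumors (145 in MC38, 151 in Pan02 and 173 in KPC), the median in irradiated Sirpα-/- tumors was 16.0, 44.7 and 16.0, against 2.26, 1 and 2.52 in irradiated WT tumors. In net counts the Sirpα-/- medians were 18.0, 18.5 and 26.0, and 90% of these genes lay below 35.6, 39.5 and 51.4. The 8 negative control probes reached at most 3, 1 and 4 counts in the same 3 samples. A rise of weakly measured genes was thus general in irradiated Sirpα-/- tumors, and its part in the rise of the ligands was not tested.

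Ifna1 stood above this background level of change in every model. Its 219, 375.5 and 493 net counts ranked 1 among the weakly measured genes (149, 155 and 177 with the members), and the highest of the other genes reached 81.0 (Ctla4), 96.5 (Ccl19) and 158 (Cfd) net counts. Ifnb1 had 27, 77.5 and 84 net counts and ranked 36, 3 and 4. Il28a had 52, 48.5 and 74 net counts and ranked 3, 5 and 6. Ifna2 had 25, 39.5 and 55 net counts and ranked 45, 19 and 18. Of the 4 ligands only Ifna1 was above the highest of the other weakly measured genes. Ifnb1, Il28a and Ifna2 lay within the range of those genes in every model.

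**Figure D3:**
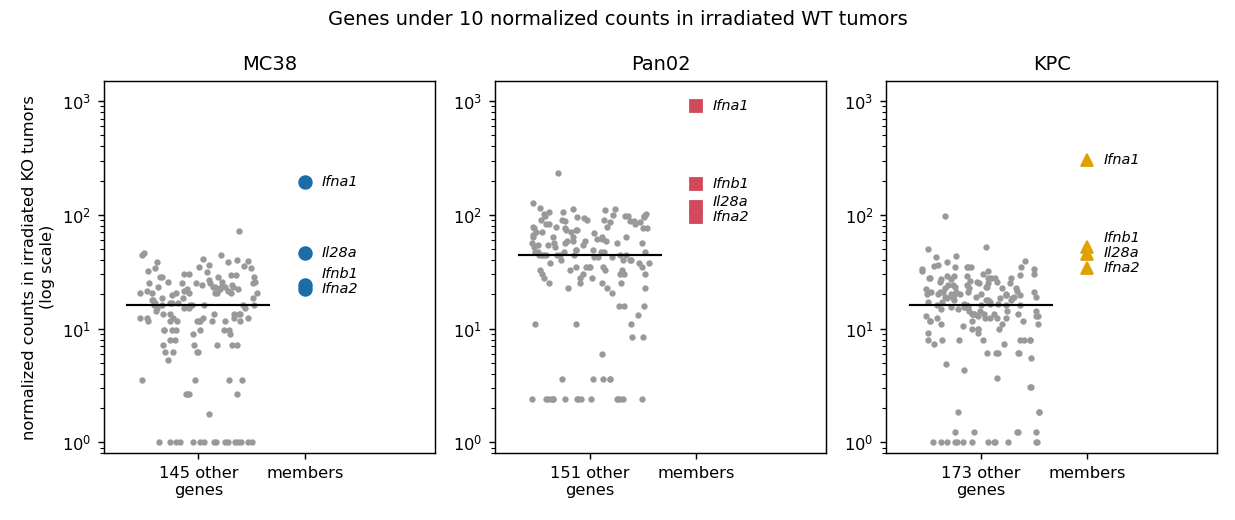
Normalized counts in irradiated KO tumors (vertical axis, logarithmic) of genes that were under 10 in irradiated WT tumors of the same model; grey points are the other genes with their median as a line, and coloured symbols are the 4 ligands. Ifna1 lies above all grey points in each model, whereas Ifna2 lies among the upper grey points in all 3.

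The ligands also rose with IR within Sirpα-/- mice. In irradiated against non-irradiated Sirpα-/- tumors the log2 fold change was 4.02 for Ifna1 (limma adjusted p = 0.00532), 2.01 for Ifna2 (0.00701), 2.40 for Ifnb1 (0.00781) and 2.48 for Il28a (0.00368), each higher in 3 of 3 models. Here too Ifna2, Ifnb1 and Il28a passed the filter only through the irradiated samples, so their p-values are a description. In MC38, where Ifna1 was already counted without IR, the ratio was 3.45 (2.56 to 4.81). It was at least 122 in Pan02 and at least 15.6 in KPC, the last against a sample in which 3 counts are worth 19.5 normalized counts. The background of this comparison is high: 43% of all genes tested were called higher (198 genes) and 0.217% lower (1 gene), and the median log2 fold change of all genes was 0.91. By median ratio 93 genes were called (86 higher), and edgeR called 51, of which 21 were higher. Without Pan02 or without KPC, fits with fewer samples, 0 ligands were called. Without Pan02 the log2 fold changes were 2.94 for Ifna1 and 1.60 for Ifnb1 (limma adjusted p = 0.0780 for both). Without KPC they were 3.91 for Ifna1, 2.31 for Ifna2, 2.64 for Ifnb1 and 2.85 for Il28a (0.0572 to 0.0641). Of the leukocyte markers tested, 3 of 8 macrophage, 3 of 6 dendritic cell and 5 of 9 T and NK cell markers were called higher, near the 43% of all genes. All 4 of 4 B cell and 4 of 4 neutrophil markers were called higher. Ptprc, the general leukocyte marker, was not called (log2 fold change 0.75, limma adjusted p = 0.0878). The part of these markers in the result was not tested.

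In WT mice IR gave no call for any member. The log2 fold changes were 0.50 for Ifna1 (limma adjusted p = 0.711), -0.21 for Ifna2, 0.10 for Ifnb1 and 0.09 for Il28a, and 0% of all genes were called higher and 0% lower (75 and 1 genes at an unadjusted p under 0.05). Irradiated WT MC38 tumors had 6.5 net counts of Ifna1 and were at least 4.20-fold above non-irradiated WT MC38. This was the only ligand in WT mice whose irradiated sample exceeded 3 counts of a non-irradiated sample at its lowest value. In KPC the non-irradiated WT sample was too shallow for such a bound, since its lowest value is worth 3.79 normalized counts.

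Without IR no member passed the test between genotypes, and 0% of all genes were called higher and 0% lower (1 and 11 genes at an unadjusted p under 0.05). Ifna1 in MC38 had 52.5 net counts (56.5 normalized) in Sirpα-/- mice, at least 24.3-fold above WT mice. Pan02 did not show it. In KPC both samples were at their lowest value, and 3 counts are worth 19.5 normalized counts in the Sirpα-/- sample, so KPC could hardly show it. The log2 fold change of Ifna1 across models was 0.98 ± 0.65 (limma adjusted p = 0.967). Ifna2, Ifnb1 and Il28a gave 0.01, 0.22 and 0.14, and Ifnb1 in MC38 was at least 1.62-fold higher on 3.5 net counts. Ifnar1 in Sirpα-/- mice was 0.519-fold that of WT mice in KPC (0.314 to 0.829, on 24 net counts), 0.829-fold in Pan02 (0.695 to 0.989) and 0.989-fold in MC38 (0.851 to 1.15). The Pan02 log2 ratio of -0.26 became 0.06 with the median ratio of all genes, and the log2 fold change across models was -0.39 (limma adjusted p = 0.967).

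The difference between the IR response of Sirpα-/- mice and that of WT mice was tested as an interaction. It was 3.53 for Ifna1 (limma adjusted p = 0.109), 2.22 for Ifna2 (0.0900), 2.30 for Ifnb1 (0.113) and 2.40 for Il28a (0.0769, the smallest of all genes), higher in Sirpα-/- mice in 3 of 3 models for each. None passed the threshold, and 0% of all genes were called higher and 0% lower, with 74 and 0 genes at an unadjusted p under 0.05. The p-values of Ifna2, Ifnb1 and Il28a are a description, since these genes passed the filter only through the irradiated Sirpα-/- samples. Without MC38, Ifna1 alone was called (4.91, limma adjusted p = 0.0411). The receptor chains gave -0.28 for Ifnar1 and -0.37 for Ifnar2 (0.787 and 0.778).

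For the receptor chains the ratios were small, so the scale matters. In irradiated tumors Ifnar1 in Sirpα-/- mice was 0.649-fold that of WT mice in MC38 (0.555 to 0.762), 0.615-fold in Pan02 (0.492 to 0.769) and 0.577-fold in KPC (0.485 to 0.685). Across models its log2 fold change was -0.68 ± 0.28, lower in 3 of 3 models, with an unadjusted limma p of 0.0316 and an adjusted p of 0.131. edgeR on the recovered net counts, with its own scaling, called it lower (-1.11, adjusted p = 0.0231). That fit called 60 genes higher and 35 lower, where limma called 73 and 3.

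Gapdh, which makes up much of the reference gene total, moved with this result. It took 34.0%, 47.0% and 44.3% of the total in MC38, Pan02 and KPC of irradiated Sirpα-/- mice, against 30.4%, 27.0% and 26.2% in irradiated WT mice. With samples scaled by the 13 other reference genes, the log2 ratios of Ifnar1 were -0.52 in MC38, -0.23 in Pan02 and -0.37 in KPC, each with the same counting interval as before (half-widths of 0.22, 0.30 and 0.23). They were -0.60, -0.41 and -0.59 with the geometric mean of the 14 reference genes and -0.51, -0.45 and -0.48 with the median ratio of all genes. Ifnar1 was therefore lower in 3 of 3 models under each of the 4 scalings, by a size that depended on the scaling, and in Pan02 without Gapdh by less than its counting interval. On the deposited scale, genes with a mean of at least 100 in the samples compared also had medians below 0. These were -0.06 in MC38, -0.13 in Pan02 and -0.29 in KPC.

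Ifnar2 had log2 ratios of -0.12 ± 0.26 in MC38, -0.14 ± 0.35 in Pan02 and -0.71 ± 0.27 in KPC (95% counting interval). The Pan02 value turned to 0.30, 0.12 and 0.08 under the other 3 scalings, and only KPC stayed below 0 by more than its interval under all 4. Across models the fit gave -0.32 ± 0.33 (limma adjusted p = 0.604). In WT mice the log2 fold change with IR was 0.77 for Ifnar2 , with an unadjusted limma p of 0.0381 and an adjusted p of 0.285. Its KPC ratio of 4.12 (2.14 to 9.10) rested on 9 net counts in the non-irradiated sample. In Sirpα-/- mice IR gave -0.38 for Ifnar1 (0.276) and 0.40 for Ifnar2 (0.329).

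**Figure D4:**
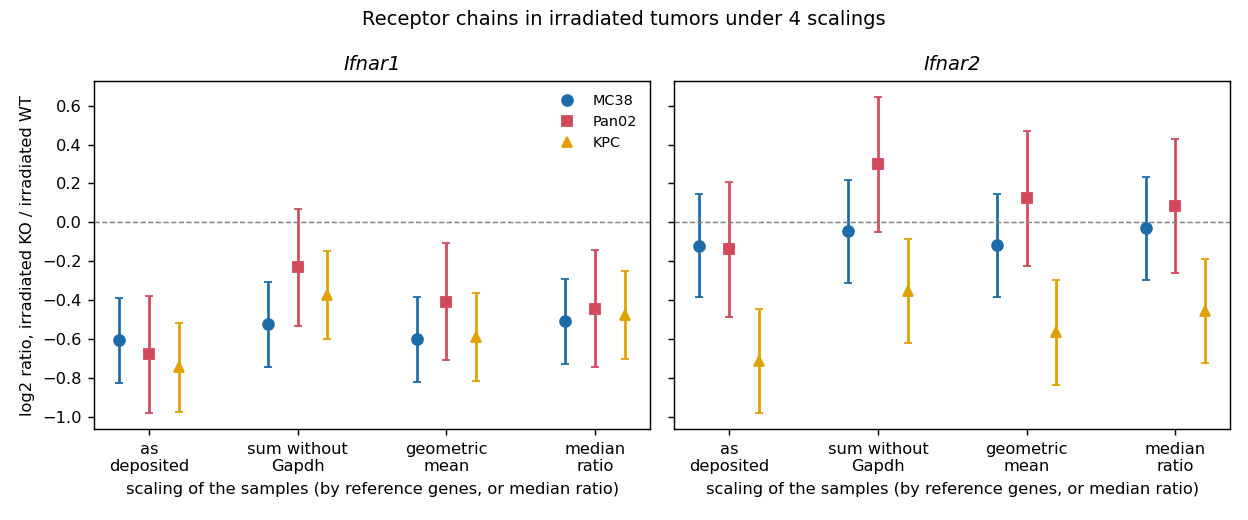
Log2 ratio of irradiated KO to irradiated WT (vertical axis) for both receptor chains under 4 scalings (horizontal axis), by tumor model; bars are 95% counting intervals. All Ifnar1 points lie below 0, between -0.23 and -0.75, and the Ifnar2 point of Pan02 changes sign between scalings.

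Between tumor models, ratios were read on the geometric mean of the reference genes, 1 sample against 1. In irradiated Sirpα-/- tumors, Ifna1 in Pan02 was 6.11-fold and in KPC 3.56-fold that in MC38, and in Pan02 1.72-fold that in KPC. Ifnb1 was 10.2-fold and 4.92-fold that in MC38, Ifna2 5.63-fold and 3.48-fold, and Il28a 3.33-fold and 2.25-fold. On this scaling all 4 ligands had the order Pan02, KPC, MC38, whereas Ifnar1 (1.05 and 0.945) and Ifnar2 (1.04 and 0.782) differed little. The other weakly measured genes, taken in each model, had deposited medians of 16.0 in MC38, 44.7 in Pan02 and 16.0 in KPC. The reference gene geometric means there were 922, 702 and 403, so this scaling gave those medians the same order. The order was thus not particular to the ligands, and the part of the general rise in it was not tested. On the deposited values KPC was 1.56-fold MC38 for Ifna1 (1.32 to 1.83, counting interval) and 2.15-fold for Ifnb1 (1.38 to 3.45). It was 1.52-fold for Ifna2 (0.932 to 2.55) and 0.984-fold for Il28a (0.681 to 1.43), so the place of KPC above MC38 depended on the scaling. On the deposited scale 1 member (Ifnar2, log2 fold change 0.94, limma adjusted p = 0.0122) was called higher in MC38 than in the pancreatic models, against 25.6% of all genes called higher and 8.89% lower. Ifnar1 (0.90, 0.00704) and Ifnar2 (1.21, 0.00379) were called higher in Pan02 than in KPC, against 67% of all genes called higher and 0.217% lower. In comparisons between models the 4 groups stand as the samples of a model, so these p-values measure the spread between groups. The calls between models were lost under each scaling that puts the models on a common level.

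The other genes of the pathway were read in the same comparison of irradiated Sirpα-/- and WT tumors. Of 4 further interferon and receptor genes measured, Ifng, the type II interferon, was called higher (24.9, 197 and 42.5 normalized counts, against 8.27, 18.7 and 8.56 in WT mice; log2 fold change 1.76, limma adjusted p = 0.0216). Ifng passed the filter on low values only through the irradiated Sirpα-/- Pan02 sample, so its p-value is a description. In irradiated WT MC38 and KPC it was among the weakly measured genes, which rose in general, and the part of that rise was not tested. Ifngr1, a chain of the Ifng receptor, had -1.05 (0.0586), and Il10rb, the chain that Il28a shares with other receptors, had -0.60 (0.181). Of 10 sensors and adaptors 0 were called in either direction, beside 15.8% of all genes called higher and 0.651% lower. The median log2 fold change of these sensors was -0.07, beside 0.16 for all genes tested and -0.27 for the 141 of them with the highest mean values.

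Of 10 genes listed as kinases and transcription factors of interferon induction 2 were called higher, Irf3 and Batf3, beside 15.8% of all genes. Batf3 is better known as a lineage factor of conventional dendritic cells. It had 14.2, 56.8 and 27.7 normalized counts in irradiated Sirpα-/- tumors, against 3.76, 9.76 and 5.04 in irradiated WT tumors. Irf3, which acts directly on Ifnb1, had 25.8, 59.2 and 20.3 normalized counts in irradiated Sirpα-/- tumors, against 12.8, 9.76 and 4.53 in irradiated WT tumors (1.17, limma adjusted p = 0.0317). Both were thus weakly measured in irradiated WT tumors, where such genes rose in general, and the part of that rise was not tested. Irf7, the amplifier of IFN-α, had 772, 298 and 207, against 184, 238 and 150 (0.92, adjusted p = 0.344). Irf7 was called higher with IR in Sirpα-/- mice (2.54, adjusted p = 0.00978). With IR in Sirpα-/- mice 6 of the 10 were called higher and 0 lower, beside 43% of all genes called higher. The median of the 10 was 1.18, beside 0.91 for all genes and 0.45 for the 141 genes with the highest mean values.

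Between genotypes after IR, 15.8% of all genes were called higher and 0.651% lower. Of 6 genes of receptor signalling, among them Jak1, Tyk2 and Stat2, 0 were called in this comparison, with a median of -0.19. Of 8 interferon-induced targets 1 was called higher, no more than the share of all genes: Mx1, an antiviral GTPase. It had 673, 1432 and 539 normalized counts in irradiated Sirpα-/- tumors, against 441.5, 146 and 132.5 in irradiated WT tumors (log2 fold change 1.92 ± 0.51, limma adjusted p = 0.0264). In each tumor model the irradiated Sirpα-/- sample had more Mx1 than the irradiated WT sample. Cxcl10, a T cell chemokine, had -0.11 (0.931), Ifit2 0.17 (0.843) and Psmb9 -0.36 (0.816), and the median of the 8 was -0.12. With IR in Sirpα-/- mice 4 of the 8 were called higher, Mx1 (3.26, 0.00487), Cxcl10 (2.65, 0.00951), Tap1 (2.17, 0.0357) and Ifit2 (1.28, 0.0178), where 43% of all genes were called higher.

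In bulk RNA, more cells of a type and more RNA per cell cannot be told apart, so markers are given beside the ligands. Of 8 macrophage markers 0 were called between irradiated Sirpα-/- and WT tumors, where 15.8% of all genes were called higher. Ptprc, the general leukocyte marker, gave -0.02 (limma adjusted p = 0.987). Of 6 dendritic cell markers 2 were called higher, Xcr1 (33.8, 56.8 and 18.5 normalized counts, against 1.5, 7.32 and 5.54) and Batf3, which is also in the list of transcription factors, while Tcf4, a factor of plasmacytoid dendritic cells, gave -0.36 (0.547). Of 6 B cell markers all 4 tested were called higher. The summed B cell level was 117 to 348 normalized counts in irradiated Sirpα-/- tumors, against 21.1 to 26.4 in irradiated WT tumors. Of 9 T and NK cell markers tested 2 were called higher (Cd247 and Cd8b1), of 4 neutrophil markers 1 (Cxcr2), and of 2 endothelial markers 0. All called markers were under 20 normalized counts in irradiated WT tumors, apart from Cxcr2 in Pan02 (49.6), and their part in the ligand result was not tested.

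The genes whose values ran most like those of each member over the 12 samples (Pearson r of log2(normalized count + 10), a description of samples that share depth and lowest value) differed between ligands and receptor chains. For Ifna1 they were Ccl19 (0.953), Cfi, Il17f, Cxcr1 and Il25, for Ifna2 Il9 (0.992), Ltb4r2, Tal1, Ccr6 and Masp2, for Ifnb1 Ccr3 (0.990), Ccl20, Masp2, Ltb4r2 and Ccr6, and for Il28a Il19 (0.995), Il25, Il23a, Ccr3 and Il9. Apart from Ccl19 and Il17f, these genes were under 7 normalized counts in all 9 samples outside the irradiated Sirpα-/- group. Between 32 and 49 genes had an r of at least 0.9 with a given ligand, and the ligands had 0.91 to 0.98 with each other. Ifnar1 ran most like Mapkapk2 (0.908), Nfatc1, Tbp, Cd81 and Maf, and Ifnar2 most like Atg16l1 (0.959), Map4k4, Cd9, Gusb and Itgb1. The receptor chains had 0.55 with each other, and Ifnar1 had -0.47 to -0.54 with the ligands.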

How the data were processed

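Total RNA (100 ng) of 12 pooled tumor samples was hybridized to the panel. The authors made the deposited signal (normalized counts) in nSolver 2.6, deducting the background of 8 negative controls and applying a factor from 6 positive controls. In the values, 14 reference genes also summed to the same total in the 4 samples of each tumor model, a step not named in the sources used here. The 2 deposited tables were identical in 6732 of 6732 values. Net counts were recovered from the step between values (tolerance 0.1 count); all values were whole in 7 samples and whole plus 0.5 count in 5. Symbols were kept as deposited. No source used here says whether the Ifna1, Ifna2 and Il28a probes also bind near-identical family members. The transcript of the deleted gene and some genes of the lists are not reported here.

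Group means were compared on log2(value + 10) with limma 3.58.1 (R 4.3.3), over the 461 genes that reached 50 in some sample, with 4 groups, a tumor model block, a mean-variance trend and Benjamini-Hochberg adjusted p under 0.05. The models pair the samples because each line was grafted in every group; residuals of samples of 1 model correlated at 0.108 to 0.820, which a scale shared within a model also raises. Alternatives were other scalings, a pseudocount of 1, other filters, no block, only the groups compared, no trend, the methods' t-test, leaving out each model, and, chosen after seeing the data, scaling without Gapdh, edgeR 4.0.16 on net counts, and leaving out the 2 non-irradiated KPC samples. Only the limma comparison of irradiated Sirpα-/- and WT tumors, without the filter, was also run on simulated data. Genes named were the members, the 5 most like each, and list genes past the threshold or most changed; the members and lists were chosen with earlier results of these data known. Figures were drawn with matplotlib 3.10.9.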

Additional observations from a re-analysis of the deposited data

How the results depend on the processing

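The precision of the ligand results is set by 1 pooled sample per condition and model and by low counts outside irradiated Sirpα-/- tumors, and the cause of the changes below was not tested beyond the construction of each alternative. Of 480 alternative values of single members, 423 kept their direction and side of the threshold, 25 kept only the direction, 3 newly passed the threshold and 29 changed direction. In irradiated Sirpα-/- against WT tumors the number of members called was 4, 3 to 5 under the scalings, pseudocount, filters, trend, block and edgeR, 0 with the methods' t-test (56 genes and 4 members at an unadjusted p under 0.05, 0 after adjustment), and 0 to 4 with each tumor model left out. For IR in Sirpα-/- mice it was 4, and 0 to 4 with a model left out; for the interaction it was 0, and 0 to 1. Without the tumor model as a replicate block the numbers were 4, 0, 4, 0 and 0 for the 5 comparisons of groups, as with it. For MC38 against the pancreatic models the number was 1, and 0 with scaling by the geometric mean of reference genes, by median ratio, and without Gapdh; for Pan02 against KPC it was 2, and 0 under the same 3 scalings.

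Over all genes, the 76 calls in irradiated Sirpα-/- against WT tumors became 14 with a highest value of at least 100, 11 with only the groups compared, 116 with no filter and 0 to 27 with a model left out. The 199 calls for IR in Sirpα-/- mice became 93 by median ratio (86 higher), 99 with the higher filter, 64 without the block, 124 with only the groups compared, 116 without the non-irradiated KPC samples, 51 with edgeR (21 higher) and 0 to 101 with a model left out. For MC38 against the pancreatic models the 159 calls (118 higher) became 106 (21 higher) with the reference genes and 119 (48 higher) by median ratio.

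Changes of direction, all but the last at values that were not called, were as follows. Without IR, between genotypes, Ifna2 became -0.0058 with a pseudocount of 1 and -0.11 without KPC or without its non-irradiated samples, and Ifnar2 became -0.25 in the same pair; with a model left out Ifna2 ranged from -0.11 to 0.0095 (it was not tested without Pan02) and Ifnar2 from -0.25 to 0.26. For IR in Sirpα-/- mice Ifnar2 became -0.0012 by median ratio and -0.58 with edgeR. For IR in WT mice Ifnb1 became -0.034 and Il28a -0.0053 by median ratio, and Ifnar1 became 0.10 without KPC and 0.11 without its non-irradiated samples, with a range of -0.36 to 0.10 over the models left out. In the interaction Ifnar2 became 0.12 without KPC, with a range of -0.67 to 0.12. For MC38 against the pancreatic models, by the geometric mean, the median ratio and the sum without Gapdh, Ifna1 became -0.21, -0.10 and -0.32, and Ifnar1 -0.31, -0.061 and -0.49. For Pan02 against KPC, by the same scalings, Ifna1 became -0.37, -0.45 and -0.32, and -0.39 with a pseudocount of 1; Ifna2 became -0.16, -0.26 and -0.13, and Ifnb1 -0.15, -0.24 and -0.11. Ifnar1, which had been called there, became -0.21 by median ratio.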
